A study of Mus musculus with 6 samples.

Results

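The thioredoxin and peroxiredoxin system was followed through 10 genes, Txn1, Txnrd1, Txnrd2, Txnip, Srxn1, Prdx1, Prdx2, Prdx3, Prdx5 and Prdx6. They were taken by gene name from a table of 14003 genes, of which 10338 reached at least 1 FPKM (fragments per gene, scaled to gene length and to the mapped fragments of the library) in at least 3 of the 6 libraries and were tested. All 10 genes were in the table and passed this filter. RNA-seq compared 3 samples of MC3T3-E1 cells, a mouse preosteoblast line of wild-type genotype, given 200 µM sulfasalazine for 24 h with 3 untreated samples of the same line and time. Sulfasalazine, a drug given against inflammation, is known to block the cystine-glutamate exchanger. The labels name no vehicle, and whether the 3 samples of a group were separate cultures is not stated, so p-values refer to sample-to-sample spread that could be technical.

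Peroxiredoxins are abundant enzymes that reduce hydrogen peroxide and organic peroxides with a reactive cysteine. Thioredoxin gives the oxidised enzymes their electrons, and thioredoxin reductases, which carry selenocysteine, reduce thioredoxin with NADPH. Sulfiredoxin repairs peroxiredoxins whose cysteine has been oxidised too far, and Txnip binds reduced thioredoxin and holds it back. Several genes of the system are known targets of NRF2, the transcription factor that binds antioxidant response elements. In osteoblast-lineage cells in culture, hydrogen peroxide is known to hold back differentiation.

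The libraries held 15980936 to 21579133 recovered reads on genes, and all carry 1 batch label. Along the first principal component (88.6% of the variance) the groups were apart, with sulfasalazine libraries at 54.1 to 59.2 and control replicates 1, 2 and 3 at -65.3, -63.2 and -42.6. Control replicate 3, the library with the fewest reads, stood apart from the other controls. Transcripts encoded by mitochondrial DNA made up 3.95% to 4.13% of all FPKM in sulfasalazine libraries and 1.6% to 2.56% in controls. Of 12 osteoblast markers, 8 had values, and Sp7, Bglap, Col1a1 and Phex averaged below 1 FPKM in both groups. The summed level of those 8 was 891 to 1113 FPKM with sulfasalazine and 1553 to 2144 FPKM in controls, most of it from Spp1. Of 8 epithelial markers, 6 had values, with a summed level of 1971 to 2207 FPKM with sulfasalazine and 1535 to 1725 FPKM in controls, mostly Krt8 and Krt18. Of the 5 epithelial markers tested, Krt8 and Krt18 rose (log2 fold changes 1.65 and 0.37), Krt19 and Krt7 fell (-1.21 and -1.27) and Cdh1 did not pass (limma). The defining markers of mature osteoblasts were therefore near 0 in cells labelled preosteoblast, and the part of these markers, and of the mitochondrial share, in the results that follow was not tested.

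Promoter sequences are shown for the genes with the largest rises among the enzymes, Srxn1, Prdx1 and Txnrd1, because these are known NRF2 targets. The windows are the 250 bases before each RefSeq transcript start on build GRCm38.p6, and the longest stretch of each that lies outside annotated exons is printed, 5′ to 3′ on the gene's strand. Capitals mark matches to the antioxidant response element core TGACNNNGC or to TGACTCA, in either case on either strand. The second motif is a heptamer bound by AP-1 factors and was added after the windows had been seen.
Srxn1, chr2:152105274-152105515, plus strand: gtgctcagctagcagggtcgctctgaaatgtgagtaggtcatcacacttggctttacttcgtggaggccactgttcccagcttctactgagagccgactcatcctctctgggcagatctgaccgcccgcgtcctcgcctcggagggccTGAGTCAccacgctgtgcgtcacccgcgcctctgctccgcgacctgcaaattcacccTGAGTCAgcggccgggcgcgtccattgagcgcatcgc
Prdx1, chr4:116685349-116685543, plus strand: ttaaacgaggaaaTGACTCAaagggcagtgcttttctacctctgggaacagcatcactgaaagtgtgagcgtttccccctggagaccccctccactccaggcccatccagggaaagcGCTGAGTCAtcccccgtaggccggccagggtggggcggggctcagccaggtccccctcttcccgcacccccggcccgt
Txnrd1, chr10:82859009-82859178, plus strand: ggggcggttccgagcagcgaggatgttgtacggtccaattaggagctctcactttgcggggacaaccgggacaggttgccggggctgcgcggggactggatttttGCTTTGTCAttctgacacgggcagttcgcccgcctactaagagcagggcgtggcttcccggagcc

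Of the 10 genes, 9 had at least 1 window and there were 11 windows in all, 3 of them for Txnrd1. The TGACNNNGC core was found on the opposite strand in Prdx1, at 133 to 125 bases before the start, and in 1 Txnrd1 window, at 92 to 84 bases before the start. In Prdx1, 1 of the 2 heptamers of that window lies wholly within this core, at 131 to 125 bases. The other heptamer lies at 237 to 231 bases. Srxn1 held no match to TGACNNNGC, the only spelling of the core that was searched. It held 2 heptamers, at 102 to 96 and 45 to 39 bases before the start. The heptamer nearer the start is followed by the bases gc, so those letters differ from the searched spelling by 1 base. Near matches were not counted in any other window, so no share stands beside this. Over all 32851 windows of the same length, 10.2% held the core, 4.46% held the heptamer and 0.167% held 2 or more heptamers. The exact E-box CACGTG was in 6.02% of all windows and in no window of these genes. MondoA and related factors bind elements of the E-box kind, and spellings other than CACGTG were not searched. A match is a description of the letters and not a shown binding site.

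With sulfasalazine, 8 of the 10 genes rose, Txnrd2 fell and Prdx5 did not pass the threshold (limma, Benjamini-Hochberg adjusted p under 0.05). Of all 10338 tested genes 66.5% passed, made up of 37.2% higher and 29.3% lower. The median log2 fold change of the 10 genes was 1.33, and that of all tested genes was 0.08, with quartiles of -0.58 and 0.79. The sulfasalazine values lay wholly above the control values for 7 genes and wholly below for 1. Over all tested genes 71.4% did not overlap, 40.3% higher and 31.1% lower. The groups overlapped for Txnip and Prdx5. In the authors' deposited table, 6 of the 10 were higher and 1 lower at adjusted p under 0.05, where 28.2% of all its genes are higher and 26.8% lower. Txnip, Prdx5 and Prdx6 did not pass in that table. Levels in bulk RNA are relative to the library, and fewer cells of a type and less RNA per cell cannot be told apart.

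**Figure D1:**
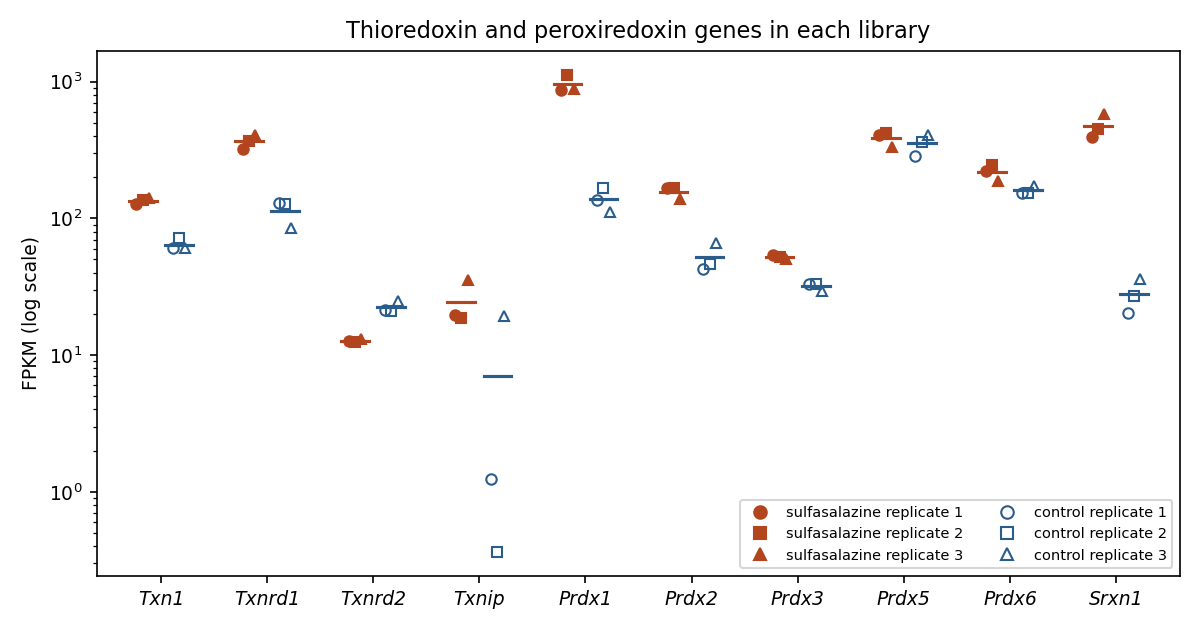
FPKM on a log axis for each of the 10 genes in the 3 sulfasalazine libraries (filled, left) and the 3 control libraries (open, right), with a line at each group mean and a symbol for each replicate number. The groups are apart for 8 genes, with the widest gap for Srxn1 and the reverse order for Txnrd2, and control replicate 3 lies far above the other controls for Txnip.

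Thioredoxin itself and its cytosolic reductase were both higher. Txn1, encoding cytosolic thioredoxin (chromosome 4, 57943373 to 57956411, minus strand, GRCm38), stood at 126, 135 and 140 FPKM in sulfasalazine replicates 1, 2 and 3 and at 60.4, 71.6 and 60.4 FPKM in controls. Every sulfasalazine library was above every control, with little spread in either group, and the log2 fold change was 1.05 (SE 0.11, limma adjusted p = 8.23e-05). The pseudogene Txn-ps1 shares 2.50% of its 50-base words.

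Txnrd1, encoding the cytosolic thioredoxin reductase (chromosome 10, 82833951 to 82897712, plus strand), had 322, 370 and 408 FPKM with sulfasalazine and 130, 128 and 84.5 FPKM in controls. The groups were apart in all libraries, and control replicate 3 was the lowest. The means were 367 ± 43.4 FPKM with sulfasalazine and 114 ± 25.6 FPKM in controls (SD, n = 3 each), a log2 fold change of 1.70 (SE 0.18, limma adjusted p = 9.57e-05).

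Txnrd2, encoding the mitochondrial thioredoxin reductase (chromosome 16, 18426384 to 18479073, plus strand), moved the other way. It had 12.6, 12.4 and 13.1 FPKM with sulfasalazine and 21.4, 20.9 and 25.0 FPKM in controls. All sulfasalazine libraries were below all controls, and the log2 fold change was -0.77 (SE 0.13, limma adjusted p = 0.0011). The linear ratio of Txnrd1 to Txnrd2 was 25.5, 29.8 and 31.3 in sulfasalazine libraries and 6.06, 6.11 and 3.38 in controls. This ratio of the cytosolic to the mitochondrial reductase was higher in every sulfasalazine library, by 2.47 on the log2 scale.

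Txn2, the mitochondrial thioredoxin and paralogue of Txn1, had 188, 197 and 188 FPKM with sulfasalazine and 211, 229 and 256 FPKM in controls. Its groups were apart, with the lower values in the treated libraries, and its log2 fold change of -0.27 did not pass (SE 0.11, limma adjusted p = 0.0520); it passed under median-of-ratios scaling (adjusted p = 0.0240), with the authors' adjusted signal (0.0251) and without control replicate 1 (0.0279). The ratio of Txn1 to Txn2 was 0.670, 0.685 and 0.745 with sulfasalazine and 0.286, 0.313 and 0.236 in controls. Mitochondrial thioredoxin transcripts thus outnumbered cytosolic ones per length in all 6 libraries, by less in the treated ones.

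Txnip, the arrestin-family protein that binds thioredoxin and also promotes the internalisation of glucose transporters (chromosome 3, 96557957 to 96561883, plus strand), gave the least even values. It stood at 19.7, 18.6 and 35.3 FPKM in sulfasalazine replicates 1, 2 and 3, from 563, 490 and 898 recovered reads. In control replicates 1, 2 and 3 it stood at 1.24, 0.364 and 19.4 FPKM, from 32, 10 and 410 reads. Control replicate 3 lay within the sulfasalazine range while the other controls were far below it.

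The log2 fold change of Txnip was 2.63 (SE 0.88, limma adjusted p = 0.0282), and 3.81 without control replicate 3 (SE 0.31, adjusted p = 2.46e-05). It was 3.36 with a pseudocount of 0.1, 3.36 with the authors' adjusted signal and 3.61 with voom on the recovered reads, and passed in each. The call was lost without the low-value filter (adjusted p = 0.0555) and without sulfasalazine replicate 1 (0.0504), sulfasalazine replicate 3 (0.0888), control replicate 1 (0.0971) or control replicate 2, where the log2 fold change was 1.86 (0.104). In the authors' deposited table its log2 fold change is 1.70 with an adjusted p of 0.0912. The opposite-strand gene Gm15441 covers 19.4% of its exonic bases in GENCODE M21, which need not be the bases that were counted. The counting is not stated to use strand. Relative to the thioredoxin it binds, Txnip over Txn1 was 0.156, 0.138 and 0.252 with sulfasalazine and 0.0205, 0.00508 and 0.321 in controls, so the highest ratio belonged to a control library.

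Of the 5 peroxiredoxin genes 4 rose, by unequal amounts. Prdx1, the main cytosolic peroxiredoxin (chromosome 4, 116685544 to 116700822, plus strand), had 863, 1125 and 886 FPKM with sulfasalazine and 136, 167 and 111 FPKM in controls. All treated libraries were several times above all controls, with means of 958 ± 145 FPKM with sulfasalazine and 138 ± 28.3 FPKM in controls (SD, n = 3 each). The log2 fold change was 2.80 (SE 0.18, limma adjusted p = 9.91e-06), above that of 98.7% of tested genes. Other genes, mostly the predicted Gm21399 and Gm7204, share 8.81% of its 50-base words.

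Prdx2, a second cytosolic peroxiredoxin, best known from red cells (chromosome 8, 84969587 to 84974834, plus strand), had 166, 166 and 139 FPKM with sulfasalazine and 42.8, 46.7 and 66.0 FPKM in controls. The groups were apart, and replicate 3 was the lowest treated library and the highest control. The log2 fold change was 1.60 (SE 0.17, limma adjusted p = 9.04e-05). Of its exonic bases, 11.5% lie in the opposite-strand genes Rnaseh2a, with a log2 fold change of 1.15, and Junb, with -1.31.

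Prdx3, the peroxiredoxin of mitochondria (chromosome 19, 60864051 to 60874556, minus strand), had 53.8, 52.0 and 50.7 FPKM with sulfasalazine and 32.9, 33.1 and 29.4 FPKM in controls. The values within each group were close together and the groups were apart. The log2 fold change was 0.70 (SE 0.11, limma adjusted p = 0.000582), which lies within the middle spread of all tested genes, whose upper quartile was 0.79. Prdx3 thus rose while Txnrd2, the reductase of the same compartment, fell.

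Prdx5, found in mitochondria, peroxisomes and the cytosol (chromosome 19, 6906697 to 6910106, minus strand), had 404, 423 and 332 FPKM with sulfasalazine and 285, 364 and 409 FPKM in controls. The groups overlapped across most of their range, and control replicate 3 was above 2 of the treated libraries. The log2 fold change of 0.14 did not pass (SE 0.16, limma adjusted p = 0.470). It was -0.01 without control replicate 1, and it passed only when replicate 3 of both groups was left out, at 0.36 (adjusted p = 0.0392). The opposite-strand gene Trmt112 covers 19.1% of its exonic bases, with a log2 fold change of 0.21.

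Prdx6, which draws on glutathione rather than thioredoxin and also has phospholipase activity (chromosome 1, 161240112 to 161251219, minus strand), had 221, 245 and 189 FPKM with sulfasalazine and 154, 154 and 173 FPKM in controls. The lowest treated library lay just above the highest control. The log2 fold change was 0.44 (SE 0.12, limma adjusted p = 0.0139), but it did not pass with median-of-ratios scaling (0.33, adjusted p = 0.0780), with the authors' adjusted signal (0.34, adjusted p = 0.0674) and without sulfasalazine replicate 1 (adjusted p = 0.0532) or 2 (0.0702). The authors' deposited table has it at 0.35 with an adjusted p of 0.0885.

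Srxn1, encoding sulfiredoxin (chromosome 2, 152105516 to 152111376, plus strand), showed the largest rise of the 10 genes. It had 393, 453 and 584 FPKM with sulfasalazine and 20.4, 26.9 and 36.2 FPKM in controls, from 10538 to 13944 recovered reads per treated library and 495 to 718 per control. Every treated library was more than 10 times every control. The means were 477 ± 97.5 FPKM with sulfasalazine and 27.8 ± 7.93 FPKM in controls (SD, n = 3 each), a 17.1-fold difference of means and a log2 fold change of 4.07 (SE 0.22, limma adjusted p = 6.31e-06). Its log2 fold change was above that of 99.8% of tested genes, and with any 1 library left out it lay between 3.87 and 4.27. None of its 50-base words occur in another gene. The ratio of Srxn1 to Prdx1, the repair enzyme to one of its substrates, was 0.455, 0.403 and 0.659 with sulfasalazine and 0.150, 0.161 and 0.327 in controls.

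**Figure D2:**
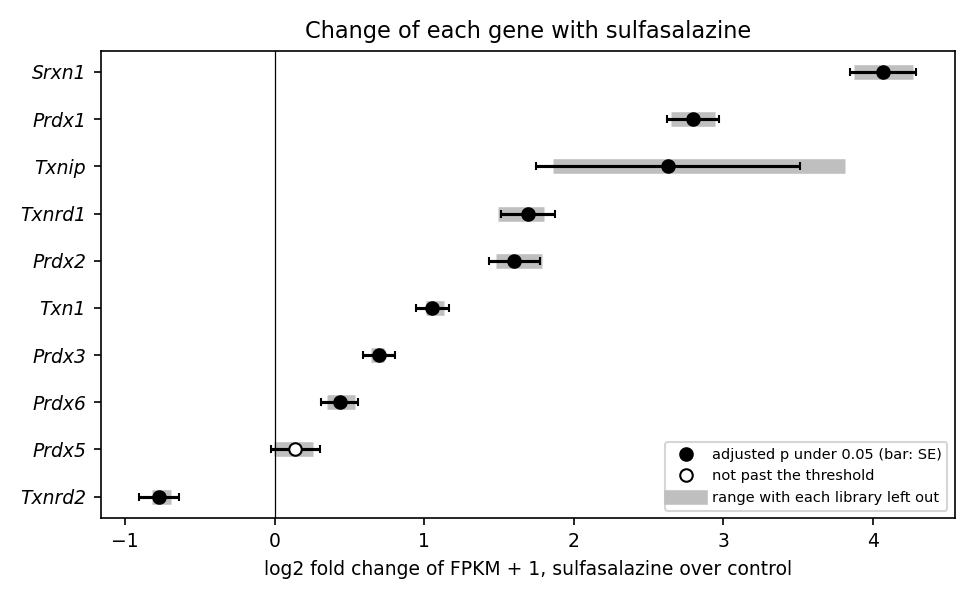
Log2 fold change of FPKM + 1, sulfasalazine over control, for each of the 10 genes, with bars for the SE, filled points for adjusted p under 0.05 and a grey band for the range with each library left out in turn. Srxn1 at 4.07 and Txnrd2 at -0.77 are the extremes, Txnip has the widest grey band (1.86 to 3.81) and the band of Prdx5 reaches -0.01.

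The order of levels within the system also differed between the groups. With sulfasalazine the order by mean FPKM was Prdx1, Srxn1, Prdx5, Txnrd1, Prdx6, Prdx2, Txn1, Prdx3, Txnip and Txnrd2. Among neighbours in that order, the library values of Srxn1 and Prdx5, of Prdx5 and Txnrd1, and of Prdx2 and Txn1 overlapped. In controls the order was Prdx5, Prdx6, Prdx1, Txnrd1, Txn1, Prdx2, Prdx3, Srxn1, Txnrd2 and Txnip. There, Prdx6 and Prdx1, Prdx1 and Txnrd1, Txn1 and Prdx2, Prdx3 and Srxn1, and Srxn1 and Txnrd2 overlapped. Srxn1 thus held the second place with sulfasalazine and the eighth place in controls.

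The summed level of the 10 genes was 2581, 3001 and 2777 FPKM in sulfasalazine libraries and 883, 1013 and 1014 FPKM in controls, 2.87 times as high by the means. Without Prdx1 the sum was still 2.2 times as high. The 5 peroxiredoxins summed to 1707, 2011 and 1596 FPKM with sulfasalazine and 650, 765 and 788 FPKM in controls. Prdx1 made up 54.0 ± 2.98% of that sum with sulfasalazine and 18.9 ± 4.26% in controls (SD, n = 3 each). Prdx5, the most abundant peroxiredoxin transcript of the control cells, made up 21.8 ± 1.58% with sulfasalazine and 47.8 ± 4.05% in controls. Prdx6 made up 12.3 ± 0.555% with sulfasalazine and 21.9 ± 1.73% in controls.

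**Figure D3:**
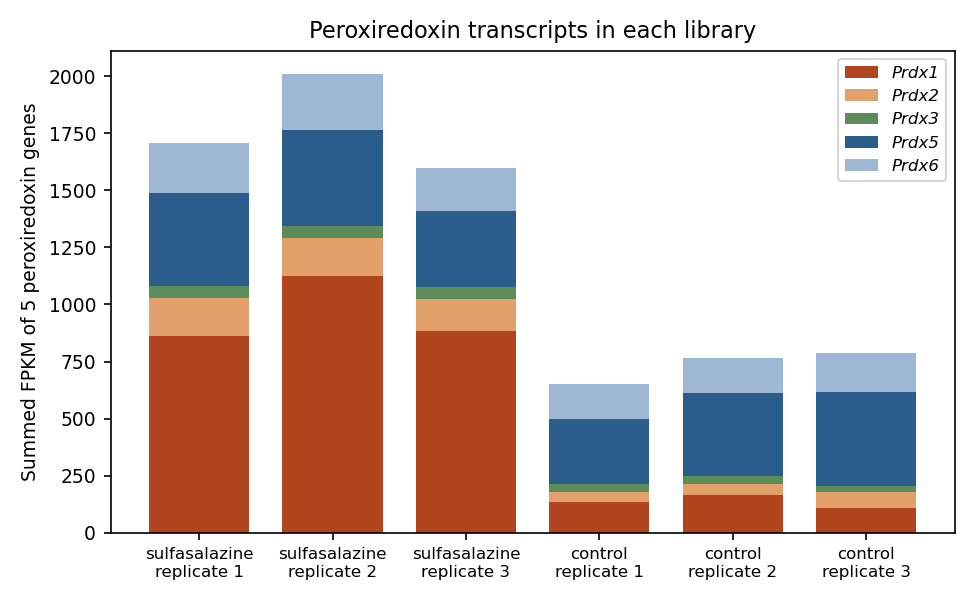
Summed FPKM of the 5 peroxiredoxin genes in each library, stacked by gene, with the 3 sulfasalazine libraries on the left and the 3 control libraries on the right. The Prdx1 block is 863 to 1125 FPKM in sulfasalazine libraries and 111 to 167 FPKM in controls, while the Prdx5 block is 332 to 423 FPKM in sulfasalazine libraries and 285 to 409 FPKM in controls.

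Ratios of 6 pairs of genes were compared between the groups with an exact two-sided permutation test of log2 ratios. Prdx1 over Prdx2 was 5.20, 6.79 and 6.35 with sulfasalazine and 3.17, 3.58 and 1.67 in controls, a log2 difference of 1.20. Prdx1 over Prdx3, the cytosolic to the mitochondrial enzyme, was 16.1, 21.6 and 17.5 with sulfasalazine and 4.13, 5.05 and 3.77 in controls, a log2 difference of 2.10. For these ratios and for Txnrd1 over Txnrd2, Txn1 over Txn2 and Srxn1 over Prdx1, the treated libraries lay wholly above the controls. Their log2 differences of 1.20 to 2.47 each had an exact p of 0.1, the smallest that 3 against 3 can give, and 0.12 adjusted over the 6 pairs. Txnip over Txn1 overlapped between the groups (log2 difference 1.58, exact p = 0.4, adjusted 0.4).

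Genes with values most like those of Txnrd1 over the 6 libraries, by Euclidean distance of mean-centred log2(FPKM + 1), were Vamp1 (0.204), Sgk1 (0.253), Marf1 (0.255), Snx14 (0.411) and Amt (0.419). Amt was low in controls, at 0.520, 0.326 and 0.159 FPKM, so its distance depends on the pseudocount. Its log2 fold change was 1.58, and 2.91 with a pseudocount of 0.1. Sgk1, a serum- and glucocorticoid-regulated kinase, had 75.7, 78.0 and 87.8 FPKM with sulfasalazine and 27.5, 27.6 and 21.4 FPKM in controls, with the low control replicate 3 that Txnrd1 also showed. Around Txnip the nearest genes were much farther away and included Synpo (1.82), Tead2 (1.95), Gsn (1.96) and Them6 (2.01). Tead2, a transcription factor of the Hippo pathway, had 158, 150 and 164 FPKM with sulfasalazine and 15.7, 16.9 and 44.5 FPKM in controls. Both sets of genes were picked by these same library values, so a like departure of control replicate 3 is not a separate finding. In these 4 genes near Txnip it lay above the other controls but did not reach the treated range.

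A set of 9 wider lists, holding 100 related genes, gave the surroundings of the system. Of these genes 87 were in the table and 81 were tested, with 37 higher and 14 lower, or 63.0% called, which is close to the 66.5% of all tested genes. Their median log2 fold change was 0.28. The values of these lists are given as a description. Of all tested genes, 37.2% were higher and 29.3% lower, and the counts of each list are to be read beside those shares.

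**Figure D4:**
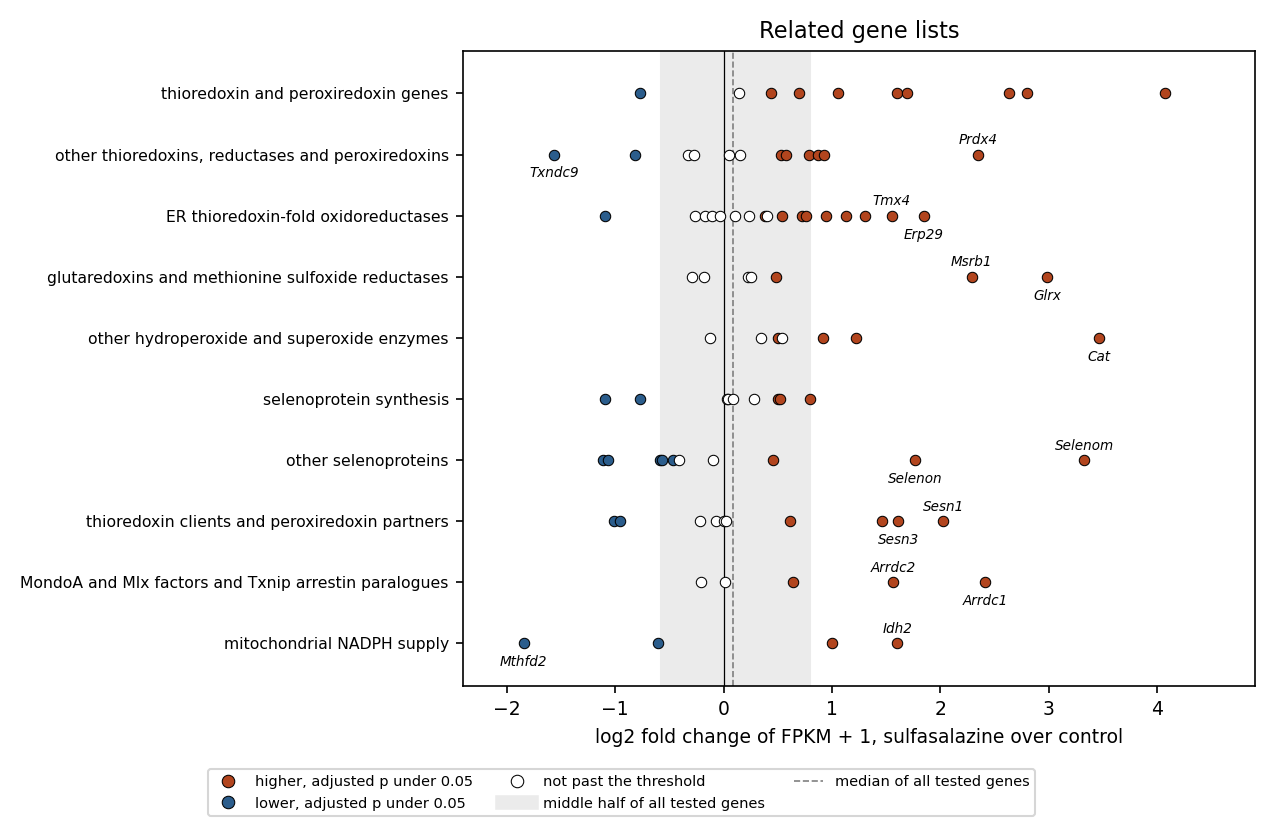
Log2 fold change of FPKM + 1, sulfasalazine over control, of every tested gene of the system (top line) and of 9 related lists, with red for higher, blue for lower and white for not past the threshold. The grey band spans the quartiles of all tested genes, -0.58 to 0.79, and genes at 1.5 or beyond in the related lists are named. Within those lists Cat at 3.46 and Selenom at 3.33 lie farthest to the right.

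Among other thioredoxins, reductases and peroxiredoxins, 6 of 12 tested genes rose and 2 fell, with a median of 0.34. Prdx4, the peroxiredoxin of the endoplasmic reticulum, had 33.3, 34.4 and 47.8 FPKM with sulfasalazine and 3.91, 7.49 and 9.75 FPKM in controls, a log2 fold change of 2.35 (limma adjusted p = 0.000198). It was the only rise above 1 on the log2 scale in this list. Txnrd3, the thioredoxin and glutathione reductase best known from testis, averaged 9.26 ± 0.299 FPKM with sulfasalazine and 4.63 ± 0.554 FPKM in controls. Nxn, encoding nucleoredoxin, a thioredoxin-like regulator of Wnt signalling, averaged 47.5 ± 1.63 FPKM with sulfasalazine and 26.1 ± 12.1 FPKM in controls, and its call was lost without control replicate 1 (adjusted p = 0.0508) or 2 (0.0596). Txndc9, a thioredoxin-like protein that binds the chaperonin CCT, fell by 1.57 on the log2 scale, with 20.2, 20.6 and 22.2 FPKM in treated and 69.8, 65.9 and 57.5 FPKM in control libraries. The other fall, named after its value was seen, was that of Txnl1, a thioredoxin-like protein of the proteasome (log2 fold change -0.81).

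Of the oxidoreductases of the endoplasmic reticulum, 9 of 17 rose, 1 fell and the median was 0.40. Erp29, a thioredoxin-fold chaperone without the redox motif, averaged 31.6 ± 1.69 FPKM with sulfasalazine and 8.19 ± 1.96 FPKM in controls, with 26.4% of its exonic bases in the opposite-strand genes Naa25 and Tmem116. Pdia4, a protein disulfide isomerase, averaged 135 ± 8.30 FPKM with sulfasalazine and 54.1 ± 6.21 FPKM in controls. The membrane-bound Tmx4 and the sulfhydryl oxidase gene Qsox1 rose by 1.55 and 1.13 on the log2 scale. The 1 fall was that of Ero1l, the oxidase that recharges protein disulfide isomerase, with 51.0 ± 9.82 FPKM in treated and 110 ± 21.2 FPKM in control libraries; it was named after its value was seen.

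Among glutaredoxins and methionine sulfoxide reductases, which share the work of reducing oxidised thiols and methionines, 3 of 7 rose and none fell, with a median of 0.25. Glrx, the cytosolic glutaredoxin, had 20.5, 21.4 and 17.9 FPKM with sulfasalazine and 1.22, 0.812 and 3.56 FPKM in controls (log2 fold change 2.99, and 3.61 with a pseudocount of 0.1 in place of 1). Msrb1, a selenoprotein that reduces methionine sulfoxide, had 68.7, 70.4 and 67.9 FPKM with sulfasalazine and 13.5, 13.3 and 13.1 FPKM in controls. Glrx2, a mostly mitochondrial glutaredoxin, averaged 11.8 ± 0.711 FPKM with sulfasalazine and 8.20 ± 0.427 FPKM in controls. It did not pass after quantile normalization (adjusted p = 0.121), with the replicate number as a block (0.0518) and without sulfasalazine replicate 1 (0.0559) or 2 (0.0768).

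Of other enzymes that remove hydroperoxides or superoxide, 4 of 7 rose and none fell, with a median of 0.54. Cat, encoding catalase of peroxisomes, had 98.7, 116 and 110 FPKM with sulfasalazine and 9.72, 8.55 and 8.46 FPKM in controls, a log2 fold change of 3.46 (SE 0.12, limma adjusted p = 1.79e-06). Sod1, the cytosolic superoxide dismutase, averaged 127 ± 0.796 FPKM with sulfasalazine and 54.0 ± 7.58 FPKM in controls. Gpx1, the main cytosolic glutathione peroxidase, averaged 414 ± 38.6 FPKM with sulfasalazine and 219 ± 20.8 FPKM in controls. Gpx4, which reduces lipid hydroperoxides, had 1150, 1204 and 838 FPKM with sulfasalazine and 679, 656 and 910 FPKM in controls; the groups overlapped. It passed at a limma adjusted p of 0.0455, but not without any 1 of sulfasalazine replicates 1 and 2 and control replicates 1 and 2 (0.113 to 0.157). It also did not pass without the filter (0.0745), with median-of-ratios scaling (0.134), with the authors' adjusted signal (0.105) or with the replicate number as a block (0.0986). Other genes share 34.7% of its 50-base words.

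Thioredoxin reductases need selenocysteine. Of 9 genes for selenoprotein synthesis, 3 rose and 2 fell, with a median of 0.08. Scly, which frees selenium from selenocysteine, fell by 1.09 on the log2 scale to 39.7 ± 3.69 FPKM in treated libraries, against 87.6 ± 25.5 FPKM in controls. Sepsecs, which completes selenocysteine on its transfer RNA, fell by 0.77, while Trnau1ap and Eefsec, which act with that transfer RNA and at the ribosome, rose by 0.80 and 0.52. Eefsec has 11.0% of its exonic bases in the opposite-strand gene Gm44264.

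Among 10 other selenoproteins, 3 rose and 5 fell, with a median of -0.44. Selenom, a thioredoxin-fold protein of the endoplasmic reticulum, had 45.3, 39.9 and 41.9 FPKM with sulfasalazine and 2.23, 2.85 and 5.46 FPKM in controls, a log2 fold change of 3.33 (limma adjusted p = 1.89e-05). Selenon, a membrane protein of the same compartment, averaged 143 ± 1.58 FPKM with sulfasalazine and 42.5 ± 13.1 FPKM in controls. Selenow, a small cytosolic thioredoxin-fold protein, fell to 172 ± 2.94 FPKM with sulfasalazine, against 381 ± 90.1 FPKM in controls, and Selenot, another such protein in the endoplasmic reticulum, fell to 26.8 ± 3.40 FPKM, against 58.0 ± 13.3 FPKM in controls.

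Clients of thioredoxin and partners of peroxiredoxins split, with 4 of 10 higher, 2 lower and a median of 0.01. Map3k5, encoding the stress kinase ASK1 that reduced thioredoxin keeps inactive, had 29.7, 29.5 and 30.8 FPKM with sulfasalazine and 9.53, 9.88 and 11.4 FPKM in controls. The sestrin genes, known for their link to peroxiredoxin repair and to mTOR signalling, differed: Sesn1 and Sesn3 rose by 2.03 and 1.61 on the log2 scale, and Sesn2 fell by 1.01. Sesn2 had 46.6, 42.6 and 41.4 FPKM with sulfasalazine and 101, 81.9 and 84.5 FPKM in controls, apart in all libraries. The other fall was that of Rrm1, the large subunit of ribonucleotide reductase, at -0.96, also named after its value was seen.

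Of the factors that drive Txnip and of its arrestin paralogues, 3 of 5 tested genes rose and none fell, with a median of 0.64. Mlxip, which encodes MondoA, and Mlx, its partner, had log2 fold changes of -0.21 and 0.01 and did not pass. The 3 paralogues with values rose, while Arrdc4 and Arrdc5 have none here. Arrdc1, an adaptor for ubiquitin ligases, averaged 31.6 ± 1.37 FPKM with sulfasalazine and 5.26 ± 1.74 FPKM in controls, and Arrdc2 averaged 13.5 ± 1.96 FPKM with sulfasalazine and 3.92 ± 0.758 FPKM in controls. Arrdc3 rose by 0.64. Its call was lost without sulfasalazine replicate 1 (limma adjusted p = 0.0628) or 3 (0.0763), control replicate 2 (0.0697) or replicate 3 of both groups (0.0515).

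Genes that supply NADPH in mitochondria, on which Txnrd2 draws, gave 2 higher and 2 lower of 4 tested, with a median of 0.20. Idh2, the NADP-dependent isocitrate dehydrogenase, averaged 75.9 ± 6.04 FPKM with sulfasalazine and 25.5 ± 9.91 FPKM in controls. Nadk2, the mitochondrial NAD kinase, rose by 1.00 on the log2 scale. Mthfd2, of the mitochondrial folate cycle, fell to 51.7, 46.8 and 106 FPKM with sulfasalazine, against 197, 292 and 214 FPKM in controls. Mthfd1l, of the same cycle, fell by 0.61, a call lost without sulfasalazine replicate 1 (adjusted p = 0.0833) or 2 (0.0736) or control replicate 2 (0.0726).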

How the data were processed

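RNA of 3 sulfasalazine-treated and 3 untreated MC3T3-E1 samples was sequenced, and groups and replicate numbers were taken from the sample titles. The tools named, per the submitters' processing notes, are HTSeq 0.13.5, HISAT2 2.2.1, fastp 0.23.0 and edgeR, with build mm39, without role or order. The authors deposited FPKM values per gene and library, and a library-size-adjusted signal of unstated method. The authors also deposited a log2 fold change and an adjusted p-value per gene. Of 13994 genes that matched GENCODE M21 (GRCm38), 13861 had the same start and end, so coordinates are given as GRCm38.

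Expression, for genes that reached 1 FPKM in 3 or more libraries, was compared as log2(FPKM + 1) with limma 3.58.1 in R 4.3.3 (two-sided, with an intensity trend, Benjamini-Hochberg adjustment over the 10338 tested genes). Such fold changes understate those of low genes. Values are mean ± SD of FPKM (n = 3), and a call is an adjusted p under 0.05. Whole reads, within 1e-05, were recovered from the FPKM steps for 100% of the 14003 genes; for 327 genes more than 1 set of reads fitted. Depth limits the lowest values most. The closest libraries, sulfasalazine replicates 1 and 2, differed beyond read-counting noise (chi-square over its degrees of freedom, 7.09), so none was taken for a repeat deposit of another. This does not show that they came from separate cultures. The fit was also run on simulated reads with far fewer changed genes than were called here. That run does not measure the error of the fit in these data. Python 3.11.15 with pandas 2.3.3, numpy 2.4.6 and scipy 1.17.1 was used for the rest.

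The genes, lists, markers, ratios and motifs were chosen with earlier results of these data known. Named were all 10 genes, Txn2 and Prdx4, up to 4 called genes of each wider list with the largest change and a group mean of at least 5 FPKM, and the 5 tested genes nearest to Txnrd1 and to Txnip, of which 1 is not reported here; genes named outside this rule are marked or serve as context. Overlap with other genes was counted in GENCODE M21 as exonic bases and as 50-base words of transcripts. Recovered reads and FPKM imply shorter gene lengths than those exons for Txnip, Prdx2, Prdx5, Erp29 and Eefsec. The overlap shares therefore need not describe the bases behind the deposited values. Promoter sequences came from RefSeq (GRCm38.p6); Ero1l and Ero1lb stand for Ero1a and Ero1b.

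Other settings tried were quantile normalization, median-of-ratios scaling, the authors' adjusted signal, a replicate block, a filter of 5 FPKM or none, a pseudocount of 0.1, no intensity trend, each library left out, an absolute log2 fold change of at least 1 and a threshold of 0.01. Limma voom on the recovered reads, and leaving out replicate 3 of both groups, were chosen after seeing the data.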

Additional observations from a re-analysis of the deposited data

How the results depend on the processing

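Txn1, Txnrd1, Txnrd2, Srxn1, Prdx1, Prdx2 and Prdx3 kept their direction and stayed past the threshold of adjusted p under 0.05 under every alternative of scaling, filter, pseudocount, model and left-out library. Txnip was not called without the filter (2.63), and lay at 1.86 to 3.81 with 1 library left out. Prdx6 was not called under median-of-ratios scaling (0.33) or with the authors' signal (0.34), and lay at 0.35 to 0.54 with 1 library left out. Prdx5 lay at -0.01 to 0.25 with 1 library left out, falling below 0 without control replicate 1 (-0.0069), and was called without replicate 3 of both groups (0.36). At adjusted p under 0.01, Txnip (2.63) and Prdx6 (0.44) were not called. With an absolute log2 fold change of at least 1 required, Txnrd2 (-0.77), Prdx3 (0.70) and Prdx6 (0.44) dropped out, which left 0 of the 10 genes lower. Of the wider lists 18 were then higher and 7 lower, and of all genes 3430 were called, 1990 higher and 1440 lower. These follow from the stricter threshold; the cause of the other changes was not tested. Quantile normalization moved the median log2 fold change of all tested genes to -0.02, against 0.08. The excess of higher over lower genes depended on scaling: 3507 were higher and 3473 lower under median-of-ratios scaling, 3507 and 3549 under quantile normalization, and 3529 and 3434 with the authors' signal. Deviations of same-numbered samples correlated at 0.04, -0.19 and -0.17. This gives no sign of pairing over all genes, and does not show that the samples were unpaired. A replicate block gave 3649 higher and 2771 lower genes, against 3846 and 3032 without it, with all 10 genes on the same side of the threshold. With the block the SE fell for Txnip (0.88 to 0.54), Srxn1 (0.22 to 0.12) and Prdx1 (0.18 to 0.14). It rose for the other genes of the 10. Among the 10 genes, Txnip in control replicates 2 and 1 had the fewest recovered reads, 10 and 32.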

Other observations

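Genes of the wider lists below the filter were not tested. Txndc2, a thioredoxin of sperm, stood at 0.124, 0 and 0.111 FPKM with sulfasalazine and 0.931, 0.848 and 0.569 FPKM in controls. Nnt, the transhydrogenase that supplies mitochondrial NADPH, was at 0 to 0.0362 FPKM with sulfasalazine and 0.0167 to 0.0218 FPKM in controls. Selenop, a secreted selenium carrier, stood at 0.955, 0.345 and 2.14 FPKM with sulfasalazine and 0.201, 0.0944 and 0.369 FPKM in controls. The groups overlapped for Nnt and Selenop and were apart for Txndc2.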
